A study of Drosophila melanogaster with 3 samples.

Results

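The heat shock protein genes Hsp22, Hsp23, Hsp26, Hsp27, Hsp67Ba, Hsp67Bc, Hsp68 and Hsp83 were examined for binding of CG16815 in Drosophila melanogaster embryos. They are 8 of the 13945 protein-coding genes on the chromosome arms, and were chosen by name. A called region was assigned to a gene when its summit, the base of highest signal, lay within 2000 bp of any annotated transcription start site (TSS) of that gene. The embryos were whole animals of both sexes, aged 0 to 10 hours, from 1 transgenic line that stably expresses CG16815 with GFP at its C-terminal end, and chromatin was precipitated with an antibody to GFP. The 3 biological replicates all belong to this single group, with no heat treatment named in the labels, no second condition and no control library analysed here. The labels name neither the promoter that drives the transgene nor the state of the endogenous gene.

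Heat shock proteins are molecular chaperones that keep damaged or newly made proteins from aggregating. Hsp22, Hsp23, Hsp26, Hsp27, Hsp67Ba and Hsp67Bc encode small heat shock proteins with an alpha-crystallin domain and lie in 1 cluster at cytological position 67B on arm 3L, with CG4456 and CG4461 among them. Hsp68 encodes a chaperone of the Hsp70 family, and Hsp83 encodes the fly Hsp90, which is abundant without stress. On heating, trimers of heat shock factor (HSF) bind heat shock elements, arrays of GAA units in alternating orientation, and release paused RNA polymerase II. The GAGA factor, the product of Trl, helps to keep several of these promoters open before induction. Hsp26, Hsp27 and Hsp83 are also transcribed without heat in the ovary, which loads their RNA into the egg.

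The upstream sequences below are those in which the called regions at the heat shock genes either lay or were missing. All were read 5′ to 3′ on the gene's strand from the RefSeq release 6 genome (dm6), and capitals mark heat shock elements of 3 units, that is GAA, TTC and GAA with any 2 bases between neighbours, read on either strand with at most 1 of the 9 fixed letters changed. The stretch at Hsp27, chr3L:9383683-9383982 on the + strand, runs from 380 to 81 bp before the TSS and holds the summit of the strongest member site at its base 224. The stretch at Hsp26, chr3L:9377478-9377777 on the - strand, runs from 350 to 51 bp before the more upstream of its TSSs and holds the summit at base 222. The stretches at Hsp23, chr3L:9381462-9381761 on the + strand, and at Hsp68, chr3R:24057311-24057560 on the - strand, hold exact elements and no called region.
Hsp27 upstream: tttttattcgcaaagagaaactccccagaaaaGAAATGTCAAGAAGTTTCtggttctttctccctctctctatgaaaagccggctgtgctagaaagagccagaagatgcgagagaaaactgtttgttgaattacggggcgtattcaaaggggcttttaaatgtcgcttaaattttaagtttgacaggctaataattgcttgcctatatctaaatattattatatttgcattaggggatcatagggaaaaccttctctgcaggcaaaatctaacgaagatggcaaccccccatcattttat
Hsp26 upstream: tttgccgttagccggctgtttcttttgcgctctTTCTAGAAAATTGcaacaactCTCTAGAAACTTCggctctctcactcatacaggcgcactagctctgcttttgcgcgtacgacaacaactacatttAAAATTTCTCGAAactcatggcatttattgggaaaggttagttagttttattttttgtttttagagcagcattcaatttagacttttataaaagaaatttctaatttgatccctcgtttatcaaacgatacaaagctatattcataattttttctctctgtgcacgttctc
Hsp23 upstream: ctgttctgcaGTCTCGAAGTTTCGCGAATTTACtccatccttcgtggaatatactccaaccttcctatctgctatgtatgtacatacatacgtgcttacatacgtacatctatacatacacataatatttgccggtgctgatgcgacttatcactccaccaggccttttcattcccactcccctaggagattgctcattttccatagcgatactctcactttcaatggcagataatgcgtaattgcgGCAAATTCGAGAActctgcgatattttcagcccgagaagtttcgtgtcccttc
Hsp68 upstream: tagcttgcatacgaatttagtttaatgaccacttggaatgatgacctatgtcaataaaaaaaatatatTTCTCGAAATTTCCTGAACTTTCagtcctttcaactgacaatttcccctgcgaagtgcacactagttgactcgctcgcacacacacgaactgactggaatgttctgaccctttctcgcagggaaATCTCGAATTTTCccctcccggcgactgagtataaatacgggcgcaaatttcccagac

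The final list held 3922 regions, called passing sites here, which were exactly the regions with the highest signal among the 18764 of the pooled list. The replicate lists held 30000, 21989 and 27358 regions, peaks and background together, of which 4062, 6640 and 4396 had a q-value under 0.05. Signal is the authors' own value per region, and its normalization is not stated. Lists were therefore compared by rank, with 1 for the highest signal in a list, and sites by their signal ratio within a list. Replicate 3 stood apart from the other replicates in the order of sites. Spearman's rho of signal across passing sites was 0.84 for replicates 1 and 2 (3660 sites), 0.52 for replicates 1 and 3 (3430 sites) and 0.54 for replicates 2 and 3 (3638 sites). The lists carry no read counts, and sequencing depth is therefore unknown.

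Within the 67B cluster, passing sites lay directly upstream of Hsp27 and of Hsp26, and at no other TSS of its 6 members nearer than 1978 bp. The cluster spans 14184 bp, from 9371511 to 9385694 on 3L (dm6), and its 2 passing summits lay 6350 bp apart. That is 141 passing summits per Mb of the span against 30.3 per Mb over the arm, a density that rests on 2 summits. The pooled list had 4 summits in the span (282 per Mb against 152 over the arm), as had replicate 1 (282 against 234) and replicate 2 (282 against 176), and replicate 3 had 5 (353 against 216). The Hsp27 site ranked within the top 1.90% of every replicate list and the Hsp26 site within the top 5.42%, 10.9% and 15.0% of replicates 1, 2 and 3. The regions around Hsp22 and Hsp67Bc moved from list to list.

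**Figure D1:**
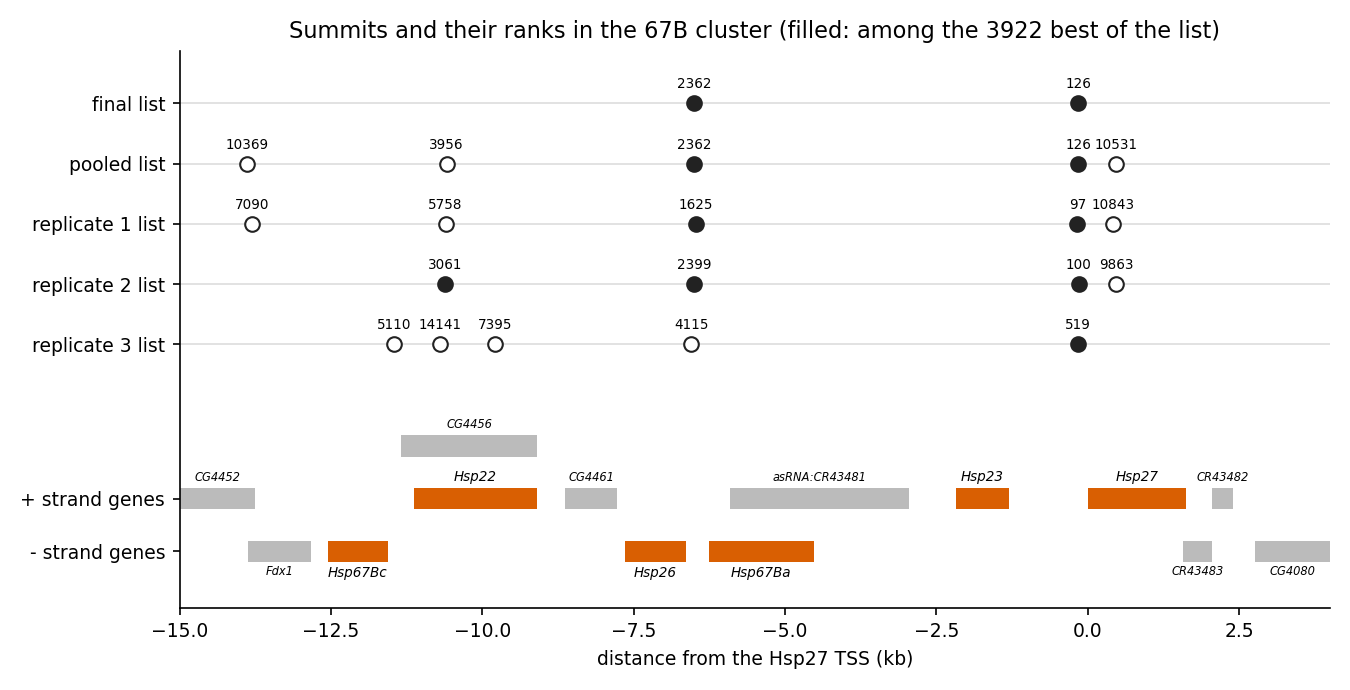
Summits of called regions in the 67B cluster, by distance from the Hsp27 TSS in kb, in the final, pooled and 3 replicate lists, with genes drawn below by strand (members in orange). Numbers are ranks by signal within the list, and filled circles are among its 3922 best. The summit before Hsp27 ranks between 97 and 519 in every list, and none lies close to the TSS of Hsp23 or of Hsp67Ba.

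Hsp27 (FBgn0001226, 3L, 9384063 to 9385694, + strand), whose product is found mainly in the nucleus, had the strongest site among the members. The passing region covered 9383726 to 9384069, with its summit at 9383906, 157 bp before the TSS in sequence annotated as intergenic. Its signal in the final and pooled lists was 931.3, rank 126, higher than 96.8% of passing sites and 4.27-fold their median of 218.4. Its signal was 242.5 in replicate 1 (rank 97), 595.5 in replicate 2 (rank 100) and 112.3 in replicate 3 (rank 519). Replicates 1 and 2 thus placed it among their 100 best regions, and replicate 3 placed it lower. The replicate summits lay at -170, -143 and -157 bp from the TSS, all inside the sequence printed above. A weak second region in the gene body had its summit 474 bp after the TSS, with a pooled signal of 53.7 and rank 10531, and did not pass. A region there was also listed in replicate 1 (rank 10843) and replicate 2 (rank 9863), and none in replicate 3. Its -log10 q-value was 0.28 in the pooled list, 0.34 in replicate 1 and 0.49 in replicate 2. The q-value was thus not under 0.05 in any list, and the region was not told apart from background.

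Hsp26 (FBgn0001225, 3L, 9376418 to 9377427, - strand), a cytosolic small heat shock protein gene, had a passing site of middling signal. The region covered 9377348 to 9377763 with its summit at 9377556, 129 bp before the more upstream TSS and 181 bp before the inner one. Its final signal of 190.0, rank 2362, was above 39.8% of passing sites and 0.87-fold their median. Signal was 52.2 in replicate 1 (rank 1625), 110.6 in replicate 2 (rank 2399) and 30.3 in replicate 3 (rank 4115). Replicates 1 and 2 kept the site among their 3922 best regions, and replicate 3 did not. The summits at -162, -129 and -87 bp moved more between replicates than those of Hsp27.

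Hsp67Ba (FBgn0001227, 3L, 9377802 to 9379534, - strand), a gene of the same family next to Hsp26, had no region of its own. The Hsp26 summit lay 1978 bp downstream of the Hsp67Ba TSS, past the 3′ end of that gene, and the Hsp26 TSSs are nearer to it. In replicate 3 the summit was 42 bp further off and Hsp67Ba was no longer counted. Hsp67Ba is therefore counted below by the distance rule only.

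Hsp22 (FBgn0001223, 3L, 9372931 to 9374964, + strand), whose protein works in mitochondria, shared a region with Hsp67Bc (FBgn0001229, 3L, 9371511 to 9372497, - strand), which lies head to head with it. The pooled region, 9373265 to 9373680, had its summit at 9373473, 524 bp before the inner Hsp22 TSS, 542 bp after the outer one and 976 bp before the Hsp67Bc TSS. The annotation places it in exon sequence, the 5′ UTR of Hsp22 and the 3′ UTR of CG4456, formerly Hsp67Bb. Its pooled signal of 123.6, rank 3956, fell 34 places below the last passing site. The lowest signal kept was 124.8 and the highest left out was 124.7, so this region lay just under the limit that the authors set. Replicate 1 gave a signal of 21.5 (rank 5758), replicate 2 a signal of 91.0 (rank 3061) and replicate 3 a signal of 17.5 (rank 14141). Replicate 2 alone held it among its 3922 best. Replicate 3 had stronger regions to either side, with summits at 9372598 (signal 26.8, rank 5110), 101 bp before the Hsp67Bc TSS, and at 9374268 (signal 22.6, rank 7395), 271 bp after the inner Hsp22 TSS. Neither reached a q-value under 0.05 (-log10 q-values of 1.01 and 0.56), so they were not told apart from background.

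Hsp23 (FBgn0001224, 3L, 9381882 to 9382765, + strand), another cytosolic small heat shock protein gene, had no summit within 2000 bp in any of the 5 lists. The nearest was the Hsp27 summit, 2024 bp after the Hsp23 TSS in the final list and 2011, 2038 and 2024 bp after it in replicates 1, 2 and 3. These distances are just outside the limit, on the far side of the Hsp23 gene. Hsp68 (FBgn0001230, 3R, 24055080 to 24057310, - strand) stands alone on another arm and had no region in the final or pooled list. A single region of replicate 2 had its summit 907 bp before the Hsp68 TSS, with a signal of 25.9 and rank 15574, and it did not reach a q-value under 0.05.

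Hsp83 (FBgn0001233, 3L, 3192969 to 3197059, + strand) had a pair of passing sites, 1170 bp apart. The stronger covered 3194138 to 3194391, with its summit at 3194264 in the intron, 1048 bp after the second TSS and 1295 bp after the first. Its final signal was 457.5, rank 600, and it ranked 876 (signal 78.3), 530 (280.4) and 654 (100.6) in replicates 1, 2 and 3. The second site covered 3192987 to 3193212 between the gene's TSSs, with its summit at 3193094, 125 bp after the first TSS and 122 bp before the second. This places it in the 5′ UTR of the longer transcript. Its final signal was 382.9, rank 808, and it ranked 2593 (signal 37.0), 977 (199.6) and 312 (145.2) in replicates 1, 2 and 3. The intron site held a similar rank in all replicates, whereas the promoter site differed by several-fold in rank and was higher than the Hsp27 site in replicate 3.

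At Hsp83 the signal of the promoter site over that of the intron site was -1.08, -0.49 and 0.53 in log2 in replicates 1, 2 and 3. The mean was -0.35 ± 0.82 (SD, n = 3), so the order of the pair was not settled by these replicates. The 2 sites also differed in sequence. The 101 bp around the intron summit, printed here whole because the site is the most A/T-rich of the members, had 20.8% GC and an unbroken run of 30 A/T bases. The promoter window had 49.5% GC, a value above that of 95.6% of passing sites, and a longest A/T run of 4 bases. The heat shock elements of the promoter form 1 continuous array just downstream of that summit, 78 to 51 bp before the second TSS. Both are on the + strand, at chr3L:3194214-3194314 (capitals mark TAATTA, the summit is base 51) and chr3L:3193138-3193165 (capitals mark the elements, which fill it).
Hsp83 intron site: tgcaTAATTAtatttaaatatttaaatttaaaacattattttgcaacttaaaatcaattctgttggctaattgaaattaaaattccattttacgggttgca
Hsp83 upstream: GAAGCCTCTAGAAGTTTCTAGAGACTTC

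**Figure D2:**
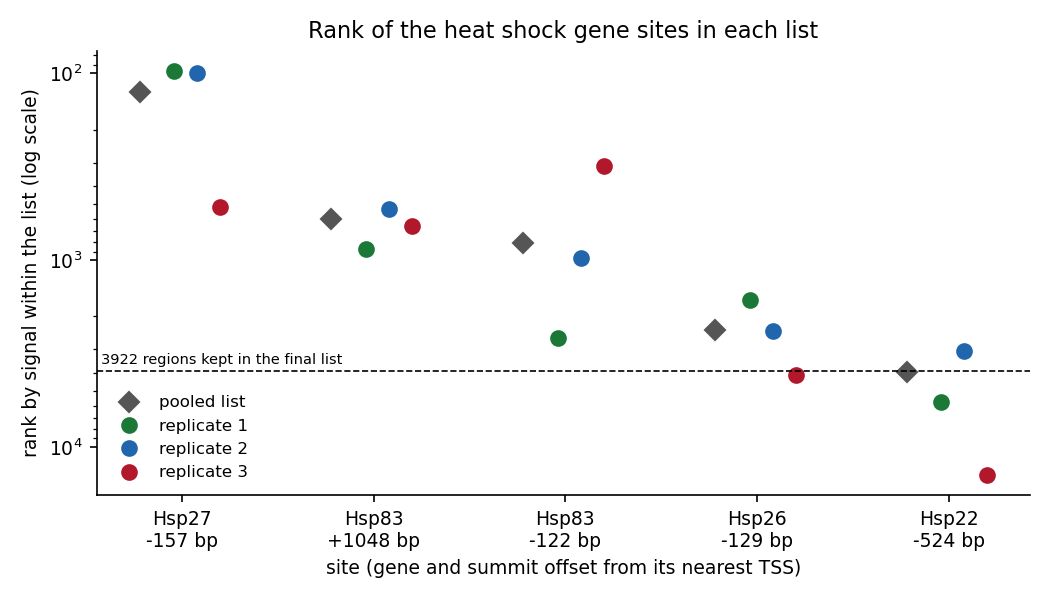
Rank by signal (log scale, 1 is the highest signal) of the 5 member sites in the pooled list (diamonds) and in replicates 1, 2 and 3 (circles). The dashed line marks the 3922 regions kept in the final list. The Hsp27 site ranks 97, 100 and 519, the Hsp26 site lies on both sides of the line, and the Hsp22 site is above it in replicate 2 alone.

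The Hsp27 site was compared with each other member site by the ratio of their signals within the same replicate, which does not depend on a list's scale. Hsp27 was taken as the reference because it had the highest pooled signal, which comes from these same replicates, so its lead is in part built in. Over the Hsp26 site its signal was higher 4.64-fold, 5.39-fold and 3.71-fold in replicates 1, 2 and 3, a mean log2 ratio of 2.18 ± 0.27 (SD, n = 3). Over the Hsp22 site it was 11.3-fold, 6.54-fold and 6.41-fold higher, a mean log2 ratio of 2.96 ± 0.46 (SD, n = 3). The Hsp22 region had a -log10 q-value of 0.74, 3.88 and 0.20 in replicates 1, 2 and 3, so its q-value was under 0.05 in replicate 2 alone. In replicates 1 and 3 its signal was thus not told apart from background. The differences over the Hsp26 and Hsp22 sites were larger than the spread between replicates and had the same direction in 3 of 3 replicates. For Hsp22 the size of the ratio rests on these low values in replicates 1 and 3.

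Over the Hsp83 intron site the Hsp27 signal was 3.10-fold, 2.12-fold and 1.12-fold higher, a mean log2 ratio of 0.96 ± 0.74 (SD, n = 3), which was 1.36 without replicate 3 and 0.62 without replicate 1. Over the Hsp83 promoter site it was 6.56-fold and 2.98-fold higher in replicates 1 and 2 and 0.77-fold as high in replicate 3. Here the mean log2 ratio was 1.31 ± 1.56 (SD, n = 3), 2.14 without replicate 3 and 0.60 without replicate 1, and the spread exceeded the mean. The exact two-sided sign-flip permutation p over 3 replicates was 0.25 for the Hsp26, Hsp22 and Hsp83 intron sites, the smallest it can give, and 0.5 for the Hsp83 promoter site. Benjamini-Hochberg adjustment over the 4 ratios gave 0.333 for the first 3 in this exact test and 0.5 for the last. With 3 replicates this test cannot reach 0.05.

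**Figure D3:**
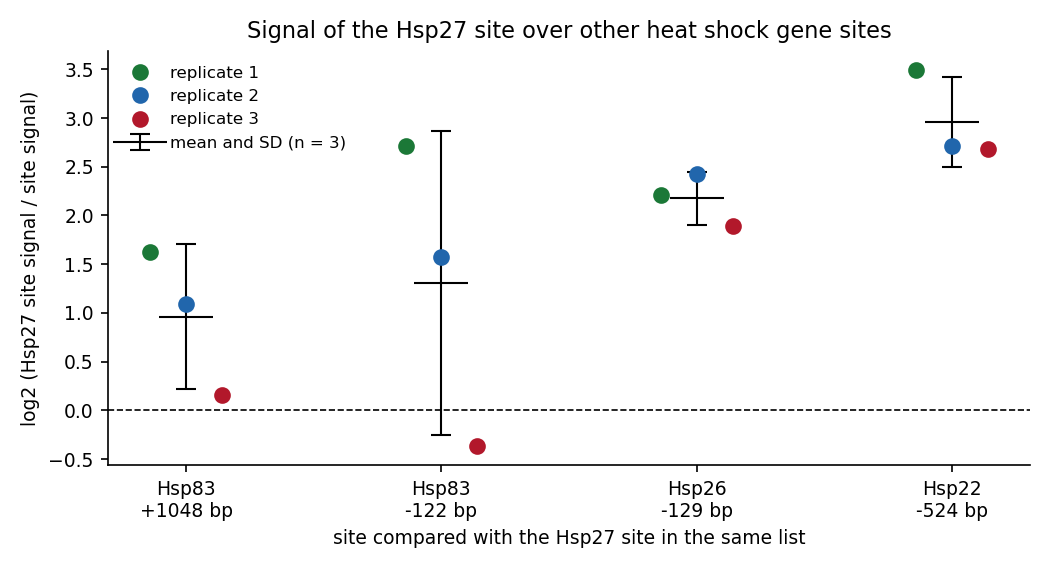
Log2 ratio of the Hsp27 site's signal to that of each other member site in the same list, for replicates 1, 2 and 3 (circles), with the mean and SD (bars, n = 3). The dashed line is an equal signal. All replicates lie above it for Hsp26 and Hsp22, and replicate 3 lies below it for the Hsp83 promoter site at -0.37.

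Counted as genes, 4 of the 8 members (Hsp26, Hsp27, Hsp67Ba and Hsp83) had a passing summit within 2000 bp of a TSS, beside 22.8% of all protein-coding genes. Within 500 bp the count was 3 (Hsp26, Hsp27 and Hsp83), beside 15.9% of coding genes. The pooled list with its background gave 6 members, adding Hsp22 and Hsp67Bc, beside 53.6%. Whole replicate lists gave 6 members in replicate 1 beside 62.3% of coding genes, 7 in replicate 2 beside 59.6% and 5 in replicate 3 beside 68.1%, so that most coding genes also had such a region. Among the 3922 best regions of each replicate, 4 members were counted in replicate 1 (background 21.5%), 6 in replicate 2 (23.6%) and 2 in replicate 3 (21.2%), a mean of 4.0 ± 2.0 (SD, n = 3). Hsp27 and Hsp83 were the members counted in every replicate at that length. Asking for a summit among the 3922 best of both other replicates lowered the count from 4 to 2 without replicate 1 and to 2 without replicate 2, because Hsp26 ranked 4115 in replicate 3. It stayed at 4 without replicate 3. No share of all coding genes is given under this stricter rule, so the fall is not read as a property of the members. With 8 members, of which 6 share a cluster and a pair shares a site, these counts are a description and were not tested.

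The positions of the promoter summits were like those of passing sites in general. Of all passing sites, 1714 lay within 500 bp of the nearest coding TSS, with a median offset of -139 bp and quartiles of -230 and -74.2 bp. The summits of Hsp27 at -157, Hsp26 at -129 and Hsp83 at -122 were all inside these quartiles, and 34.2% of the 1714 sites lay between 200 and 100 bp upstream. The Hsp83 value is from its second TSS. That summit also lies 125 bp after the first TSS, nearly as close, and this offset is outside the quartiles. The 101 bp around the summit had 33.7% GC at Hsp27 and 24.8% at Hsp26, beside a median of 30.7% over passing sites (quartiles 26.7 and 36.6) and 41.6% over arm 3L. The longest A/T run was 17 bp at Hsp27 and 11 bp at Hsp26, beside a median of 10 bp.

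Heat shock elements were searched in the 500 bp before each TSS, on both strands, so that both arrangements of 3 alternating units were found. Exact elements stood before 2 of the 8 members, Hsp23 and Hsp68, and before 0.74% of all 19253 coding TSSs. With at most 1 changed letter, a tolerance added after the data were examined, 6 members had one (Hsp22, Hsp23, Hsp26, Hsp27, Hsp68 and Hsp83), beside 13.6% of coding TSSs. Members are counted by gene here, and the shares are by TSS. Of the 11 TSS windows of the members, 2 held an exact element and 7 held one with at most 1 changed letter. The exact elements thus stood before the 2 members with no passing or pooled region. At Hsp27 the elements began 348 and 343 bp before the TSS, and the nearest was centred 180 bp upstream of the summit. At Hsp26 the nearest was centred 86 bp from the summit, at the Hsp83 promoter 50 bp and at the Hsp83 intron site 150 bp. At the Hsp22 region, which did not pass, the nearest was centred 443 bp from the summit. Among all passing sites, 14.0% had such an element within 300 bp. Over all coding TSSs, 13.3% of the 2615 with an element had a passing summit within 500 bp, beside 14.3% of the 16638 without.

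**Figure D4:**
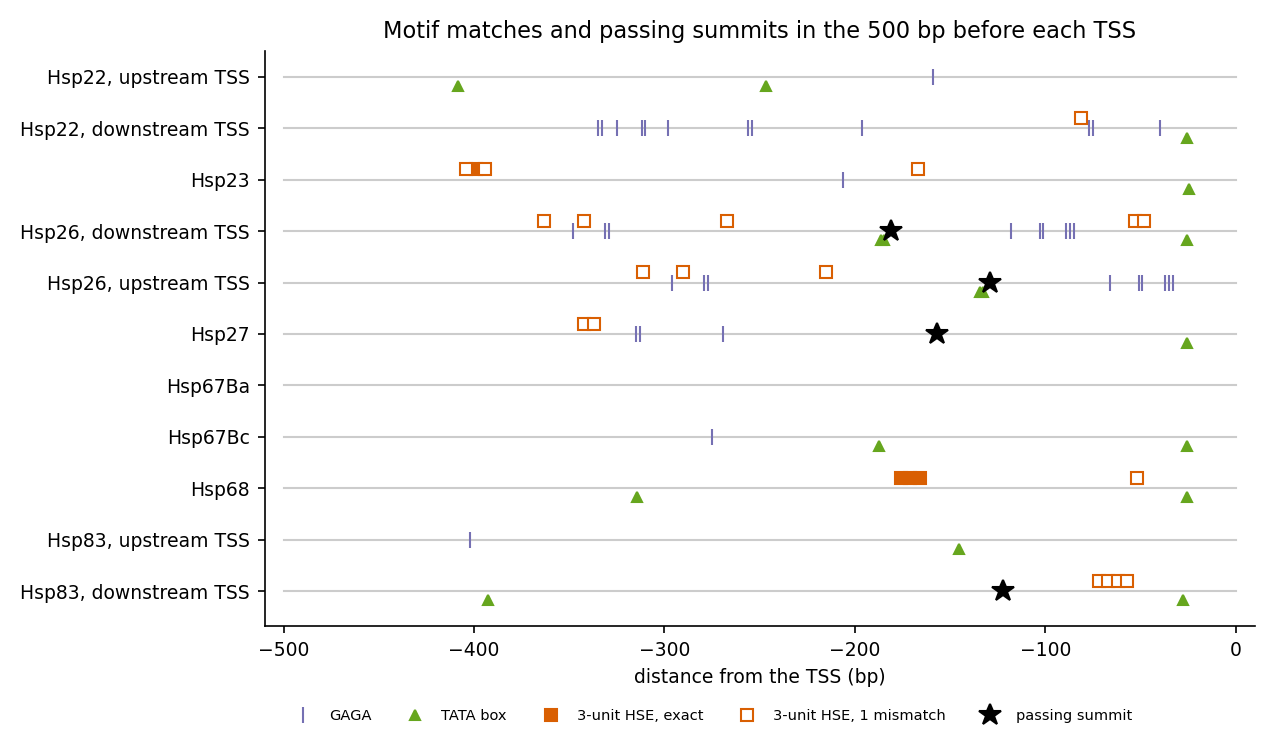
Matches to GAGAG, to the TATA box and to the heat shock element of 3 units (filled, exact; open, 1 letter changed) in the 500 bp before each annotated TSS of the members, by distance from the TSS in bp. Stars are summits of passing sites. Hsp23 and Hsp68 hold exact elements and no star, and the star of Hsp27 at -157 lies downstream of its open elements.

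Other short motifs were counted in the same windows, again with members counted by gene and shares by TSS. The windows of Hsp67Bc and of the outer Hsp22 TSS overlap, so some matches count for both genes. The TATA box, TATAAA, stood before 7 of the 8 members, beside 59.3% of coding TSSs, and in each of the 7 it began 27 to 30 bp before a TSS (the inner one at Hsp22, Hsp26 and Hsp83). GAGAG, the letters bound by the GAGA factor, stood before 6 members, beside 44.5%, with 12 matches before the inner TSS of Hsp22, 9 at Hsp26, 3 at Hsp27 and at most 1 at the other TSSs. The DNA replication-related element TATCGATA stood before Hsp83 alone, beside 9.28%, and CGATA, which lies within it, before 7 members, beside 58.1%. GATAA stood before 6 members (70.7% of coding TSSs), TAATTA before 4 (32.8%) and AGGTCA before 3 (10.9%). GAANNTTC stood before 7 (14.3%) and TTCNNGAA before 4 (12.9%), and both overlap the 3-unit element. CACGTG and CAGGTAG stood before none, beside 5.72% and 2.96%. In the 101 bp around the summit, the Hsp27 and Hsp83 promoter sites held none of these motifs. A match is a description of letters and not of a bound factor.

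Among 37 other heat shock and chaperone genes, 9 had a passing summit within 2000 bp, beside the 22.8% of all coding genes. The 6 Hsp70 genes, the most strongly heat-inducible of the family, had no summit within 2000 bp in any list, and each has an exact 3-unit element upstream. These copies are nearly identical in sequence, and the handling of reads that fit several copies is not stated. The list of constitutive Hsp70 relatives and nucleotide exchange factors had 2 of 7, Hsc70-5, the mitochondrial form (signal 553.5, rank 412, 6 bp before its TSS), and Hsc70-4, the cytosolic form (402.9, rank 733, -191 bp). J protein genes, whose products hand clients to Hsp70, had 2 of 5, DnaJ-H (615.6, rank 340, -158 bp) and mrj (540.6, rank 434, -297 bp). Hsc70-4 and DnaJ-H also have an exact 3-unit element upstream, so exact elements stood at genes with and without a passing site. DnaJ-H, mrj, Hsc70-5 and stv (below) have a final rank between that of the Hsp27 site and those of both Hsp83 sites. Other alpha-crystallin and 67B genes had 1 of 7, CG14207 (170.9, rank 2719, -1097 bp), the relatives and partners of Hsp90 had 1 of 4 and the Hsp60 genes 0 of 4.

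Of the 4 regulators, 3 had a passing summit within 2000 bp, beside 22.8% of all coding genes. That share leaves out noncoding genes such as lncRNA:Hsromega. Trl had 4 such summits and stv 3, and the strongest of each is given. Trl, the gene of the GAGA factor, had a summit 1533 bp after a TSS with a signal of 2264.8, rank 9, which was higher than that of any member. The co-chaperone gene stv, whose product works with the small heat shock proteins, had a signal of 499.6 (rank 500, -612 bp), and the heat-inducible noncoding RNA gene lncRNA:Hsromega had 345.1 (rank 982, 174 bp after its TSS). Hsf, which encodes HSF, had no summit within 2000 bp in any list.

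**Figure D5:**
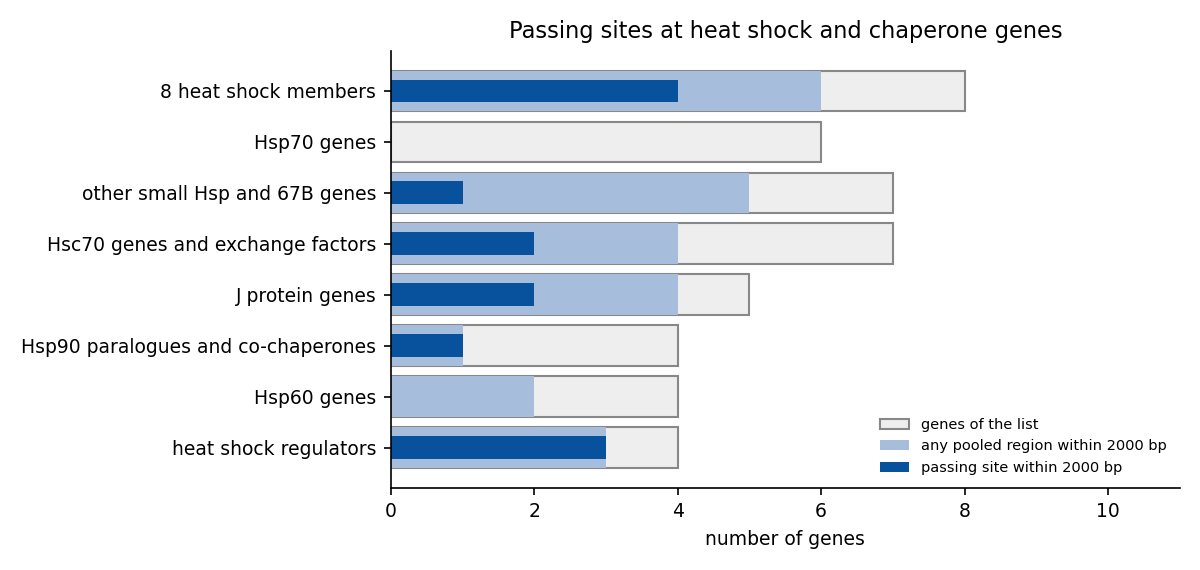
Number of genes in each list (grey bar), with any region of the pooled list within 2000 bp of a TSS (light blue) and with a passing site there (dark blue). The members have 4 of 8, the Hsp70 genes 0 of 6 and the regulators 3 of 4, beside a passing site at 22.8% of all coding genes.

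The sites most like that of Hsp27 were found among 1936 other coding genes with a passing summit within 500 bp and a summit in all 3 replicates, by the Euclidean distance between log2 ranks over the 3 replicate lists. The nearest were Trp1, at a distance of 0.44 (ranks 110, 125 and 609 in replicates 1, 2 and 3), dnc at 0.49 (128, 113 and 602), cu at 0.50 (93, 76 and 640), mrt at 0.54 (120, 120 and 667) and PAN3 at 0.71 (83, 106 and 327). These genes were picked by the same ranks, so their likeness to Hsp27 there is given as a description. Their summits lay 125, 276, 244, 189 and 111 bp before the TSS.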

How the data were processed

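ChIP-seq regions were analysed for 3 biological replicates of 1 group. Per the README files that the authors deposited, they called a relaxed list of peaks and background for each replicate and for the 3 alignments pooled, each with 1 further file of a nature not given, and derived the final list at an IDR threshold. No source used here gives the aligner, peak caller, versions, threshold or signal normalization. The signal value and the -log10 q-value of each region are as deposited by the authors, on dm6. The dm3 lists were not used.

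Summits were placed on the TSSs of Ensembl release 115 (BDGP 6.54), which has dm6 coordinates. Summits within 150 bp were counted as shared, and N was 3922, the length of the final list. Ratios of signal within a list were tested by an exact sign-flip permutation test. Precision comes from the spread over replicates, since depth is unknown. Distances, TSS choice, thresholds, list length and each replicate left out were varied. Genes named outside the 8 members were the up to 8 chaperone genes with the highest passing signal, Hsf and the 5 genes most like the strongest member site. Of the chaperone names, 4 matched no gene uniquely and 2 matched by an older symbol. Members and lists were chosen with earlier results of these data known. Python 3.11.15, numpy 2.4.6, pandas 2.3.3 and scipy 1.17.1 were used.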

Additional observations from a re-analysis of the deposited data

How the results depend on the processing

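The count of 4 members with a passing site within 2000 bp stayed within 1.5 times that value for every other distance, TSS choice and assignment tried, from 3 members at 500 and 1000 bp, or with each summit given to its nearest gene, to 6 at 5000 bp and among pooled regions with a q-value under 0.05. The share of all coding genes rose with distance too, from 18.4% at 1000 bp to 22.8% at 2000 bp and 35.6% at 5000 bp. The count of members moved to 2 (Hsp27 and Hsp83) when only the stronger 50% of passing sites counted. No share of all coding genes is given here for that setting, the nearest-gene rule or the pooled regions under that q-value. Leaving out each replicate in turn gave 2 to 4 members, again with no share of all coding genes beside it. The count of 4 members whose passing site was found in all 3 replicates was also 4 for a shared distance of 75 or 300 bp or an overlap of 1 bp, settings that could not change it, since no passing member site shifted by more than 42 bp. That count includes Hsp67Ba through the Hsp26 site, although in replicate 3 this summit lay more than 2000 bp from the Hsp67Ba TSS. No share of all coding genes is given for it either. The mean of 4.0 members among the best regions of each replicate ranged from 3.0 to 5.0 with a replicate left out. The 4 mean log2 signal ratios stayed positive in all 20 alternatives, but the pooled values were positive by the choice of Hsp27, and the means over replicates hide the value of -0.37 in replicate 3 for the Hsp83 promoter site. Allowing 1 changed letter in the heat shock element, a choice made after the data were examined, moved the members with one from 2 to 6. The signal ratios paired sites within each replicate, but no conditions could be compared because there is 1 group. With 3 replicates, unknown depth and no control library analysed here, signal unrelated to CG16815 cannot be told apart from its binding.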
